A study of Mus musculus with 2 samples.

Results

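The lysosomal genes described here are 34 of the 31053 gene rows of the deposited tables. They were taken by their symbols, each of which matched 1 row. No measured value was used to pick the rows, but the list was drawn up with earlier results of these data known. By role they are 7 proteins of the lysosomal membrane (Lamp1, Lamp2, Cd63, Cd68, Laptm5, Scarb2, Mcoln1), 11 cathepsins and other proteases (Ctsa, Ctsb, Ctsc, Ctsd, Ctsf, Ctsh, Ctsl, Ctss, Ctsz, Lgmn, Tpp1) and 6 glycosidases, which cleave sugar chains (Hexa, Glb1, Gaa, Man2b1, Neu1, Gusb). A further 5 handle lipids or act as activators and partners of lysosomal enzymes (Npc2, Psap, Lipa, Asah1, Grn), 4 belong to the proton pump (Atp6v0c, Atp6v0e, Atp6ap1, Atp6v1a), and Tfeb encodes a transcription factor.

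Lysosomes are acidic compartments in which proteins, sugar chains, lipids and nucleic acids taken up from outside or delivered by autophagy are broken down. The V-ATPase, a multi-subunit pump, moves protons into the lumen, and most of the enzymes inside work only at that low pH. In the brain, microglia, the resident phagocytes, are known for their many lysosomes, and inherited loss of single lysosomal enzymes leads to storage diseases with neurodegeneration. TFEB and its relatives bind a short E-box sequence in the promoters of many lysosomal genes.

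Expression was read from 2 droplet single-cell RNA libraries of mouse hippocampus, 1 from Mr1+/+ and 1 from Mr1-/- mice, all 7 months old and untreated. Mr1 encodes an MHC-like protein that shows small microbial vitamin-pathway compounds to a kind of T cell known as the MAIT cell. Per the labels' protocols, the tissue was dissociated and events negative for DAPI and positive for Draq5 (intact cells with DNA) were sorted before a 10x Genomics 5' library was made. How many mice each library pooled, their strain background and which part of Mr1 was deleted are not given in the sources used here. Each genotype had a single library, so no difference here has a replicate check and none was tested. Each is a difference between these 2 libraries, and the mice, the dissection, the sort and the library preparation cannot be told apart from the genotype.

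Depth is given in unique molecular identifiers (UMIs), tags that count single captured molecules. There were 23244575 UMIs over 6410 barcodes for Mr1+/+ and 18349132 UMIs over 5347 barcodes for Mr1-/-. After filtering, 5978 and 5095 cells remained, and 44 barcode sequences occurred in both libraries. In the 7 cell classes compared below, Mr1 itself had 0 to 53 UMIs per class for Mr1+/+ and 0 or 1 for Mr1-/-, which fits the labels. Cells were clustered on variable genes that held none of the 34 genes and none of the other lysosomal genes listed further on, so that the classes do not rest on them. Marker genes named 23 of the 25 clusters as 10 classes. In this text a pair of values always gives the Mr1+/+ library first, a level is CPM (the UMIs of a gene summed over the cells of a class in a library and scaled to the same UMI total everywhere), and a ratio is Mr1-/- over Mr1+/+. Intervals are exact 95% intervals and cover counting error only. A level compares 1 gene between classes or libraries, never different genes.

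Comparisons were made in the 7 classes that reached 50 cells for both genotypes. These were endothelial-like (1340 and 1500 cells), oligodendrocyte-like (1441 and 963), mural-like (963 and 970, cells that wrap vessels), astrocyte-like (962 and 479), microglia-like (665 and 760), neuron-like (269 and 161) and neuroblast-like (67 and 59). Cells are described as non-neuronal in the title, while 252 and 154 of the neuron-like cells formed a cluster led by Reln. Neuron-like levels below come mostly from cells of that cluster, as the other neuron-like cluster held 17 and 7 cells. They may not hold for other hippocampal neurons. In the microglia-like class the 10 microglial markers summed to 55694 and 55994 CPM, and none was at 0. In the other compared classes the same markers summed to between 0.0357% and 0.322% of that level. A gene transcribed only in microglia could reach such a share of its microglial level elsewhere through free RNA in the droplets. By this measure 28 to 33 of the 34 genes stood at over 2 times the level that free microglial RNA would give, in both libraries, in each of the other compared classes. Ctss was an exception in each of them, and Laptm5 in each but the endothelial-like class.

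The promoters come first, because Tfeb, the regulator in the list, recognises a sequence that can be read in them. RefSeq promoters (250 bases before to 50 bases after the start of transcription, GRCm38.p6) were matched by symbol for 31 of the 34 genes, and Ctsb, Ctsh and Asah1 had no entry. The E-box searched was CACGTG, which reads the same on both strands. A gene with several promoter entries counted where any of them held the motif. It was present in a promoter of 11 of the 31 genes (35.5%), namely Lamp1, Mcoln1, Ctsa, Ctsd, Ctsf, Ctsl, Lgmn, Glb1, Gaa, Atp6v1a and Atp6v0e. The same motif was present for 18 of 76 other lysosomal genes (23.7%), for 2187 of all 27025 genes with such a promoter (8.09%) and for 1177 of the 10085 genes with at least 100 UMIs in these libraries (11.7%). The longer form TCACGTG, searched on both strands and overlapping the shorter motif wherever it occurs, was present for 9 of 31 genes (29.0%), 18 of 76 others (23.7%) and 4.29% of all genes. Of the genes with at least 100 UMIs it was present for 7.07%. A match describes the letters of the promoter and is not evidence that a factor binds there.

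For 10 of the 11 genes an E-box lay before the start site. The 6 fragments printed here are those that meet no annotated exon, and they show the motif in genes whose levels are described below. Capitals mark CACGTG, and each fragment runs 5′ to 3′ along its gene's own strand.
Lamp1: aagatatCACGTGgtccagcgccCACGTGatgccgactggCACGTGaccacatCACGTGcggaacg
Gaa: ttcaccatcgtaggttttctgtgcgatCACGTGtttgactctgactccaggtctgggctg
Glb1: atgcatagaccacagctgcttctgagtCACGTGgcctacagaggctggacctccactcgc
Lgmn: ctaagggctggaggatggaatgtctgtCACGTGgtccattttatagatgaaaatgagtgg
Ctsf: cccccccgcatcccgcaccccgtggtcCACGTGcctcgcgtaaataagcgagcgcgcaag
Atp6v1a: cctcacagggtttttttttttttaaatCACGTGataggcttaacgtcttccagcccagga
Lamp1, which encodes an abundant membrane glycoprotein, had 4 E-boxes within this 66-base stretch on the plus strand (chr8:13159093-13159158), the nearest beginning 15 bases before the start. The Gaa fragment (acid alpha-glucosidase, which digests glycogen) is on the plus strand at chr11:119267796-119267855 and its motif began 140 bases before the start. The Glb1 fragment (beta-galactosidase) is on the plus strand at chr9:114401003-114401062, with the motif 48 bases before the start. The Lgmn fragment (the asparagine-specific protease legumain) is on the minus strand at chr12:102439109-102439168, with the motif 49 bases before a start site. Lgmn has another promoter entry (chr12:102439679-102439978), which held no E-box. The Ctsf fragment (cathepsin F) is on the plus strand at chr19:4855059-4855118, at 79 bases, and is the only fragment printed whose E-box is not part of the longer TCACGTG. The Atp6v1a fragment (the catalytic subunit of the pump) is on the minus strand at chr16:44139358-44139417, at 131 bases. These 6 genes were not all highest in the same cell class: Lgmn, Glb1 and Ctsf were highest in microglia-like cells, Gaa and Atp6v1a in neuron-like cells, and Lamp1 was near equal in microglia-like and oligodendrocyte-like cells, as the next paragraphs give.

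Lysosomal transcripts took a far larger share of UMIs in microglia-like cells than in any other class. The 34 genes together made up 4.35% and 4.30% of all UMIs in microglia-like cells. The shares were 0.900% and 0.869% in astrocyte-like, 0.581% and 0.606% in oligodendrocyte-like, 0.526% and 0.521% in neuron-like, 0.484% and 0.495% in mural-like, 0.447% and 0.424% in endothelial-like and 0.417% and 0.377% in neuroblast-like cells. Among these 7 classes both libraries gave microglia-like cells the top place and astrocyte-like cells the next. In the small fibroblast-like class (27 and 30 cells) the sum was 9098 and 9598 CPM, beside 8999 and 8689.5 CPM in astrocyte-like cells. The median microglia-like cell held a lysosomal share of 4.34% and 4.24%, with quartiles of 3.90% and 4.78% for Mr1+/+ and of 3.80% and 4.79% for Mr1-/-. After every cell was thinned to 1500 UMIs, which left out 836 and 523 shallower cells, a median of 19 of the 34 genes was detected per microglia-like cell in each library, against 4 to 9 in the other compared classes. Unthinned, the microglia-like medians were 26 and 25.

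Of the 34 genes, 26 (76.5%) were highest in microglia-like cells for Mr1+/+ and 23 (67.6%) for Mr1-/-. Among all 12542 genes ranked in the same way, 14.5% and 14.2% were highest there. The exceptions in both libraries were Cd63, Atp6v0e and Neu1 (astrocyte-like), Gaa, Atp6v0c and Atp6v1a (neuron-like), Tfeb (oligodendrocyte-like) and Mcoln1 (endothelial-like). Lamp1, Scarb2 and Lipa were highest in different classes in the 2 libraries, and their top 2 classes lay within 1.10-fold of each other in each library. As a share of the level summed over the 7 classes, the most concentrated genes were Ctss (99.2% and 99.7%), Laptm5 (98.8% and 99.3%), Cd68 (97.8% and 98.5%), Ctsd (87.9% and 86.7%) and Lgmn (87.7% and 86.4%), all in microglia-like cells. The most evenly spread were Neu1, with 18.0% and 18.9% in its top class, Mcoln1 (21.9% and 19.0%), Scarb2 (23.8% and 24.1%), Atp6v0c (25.5% and 25.04%) and Atp6ap1 (26.1% and 27.9%).

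**Figure D1:**
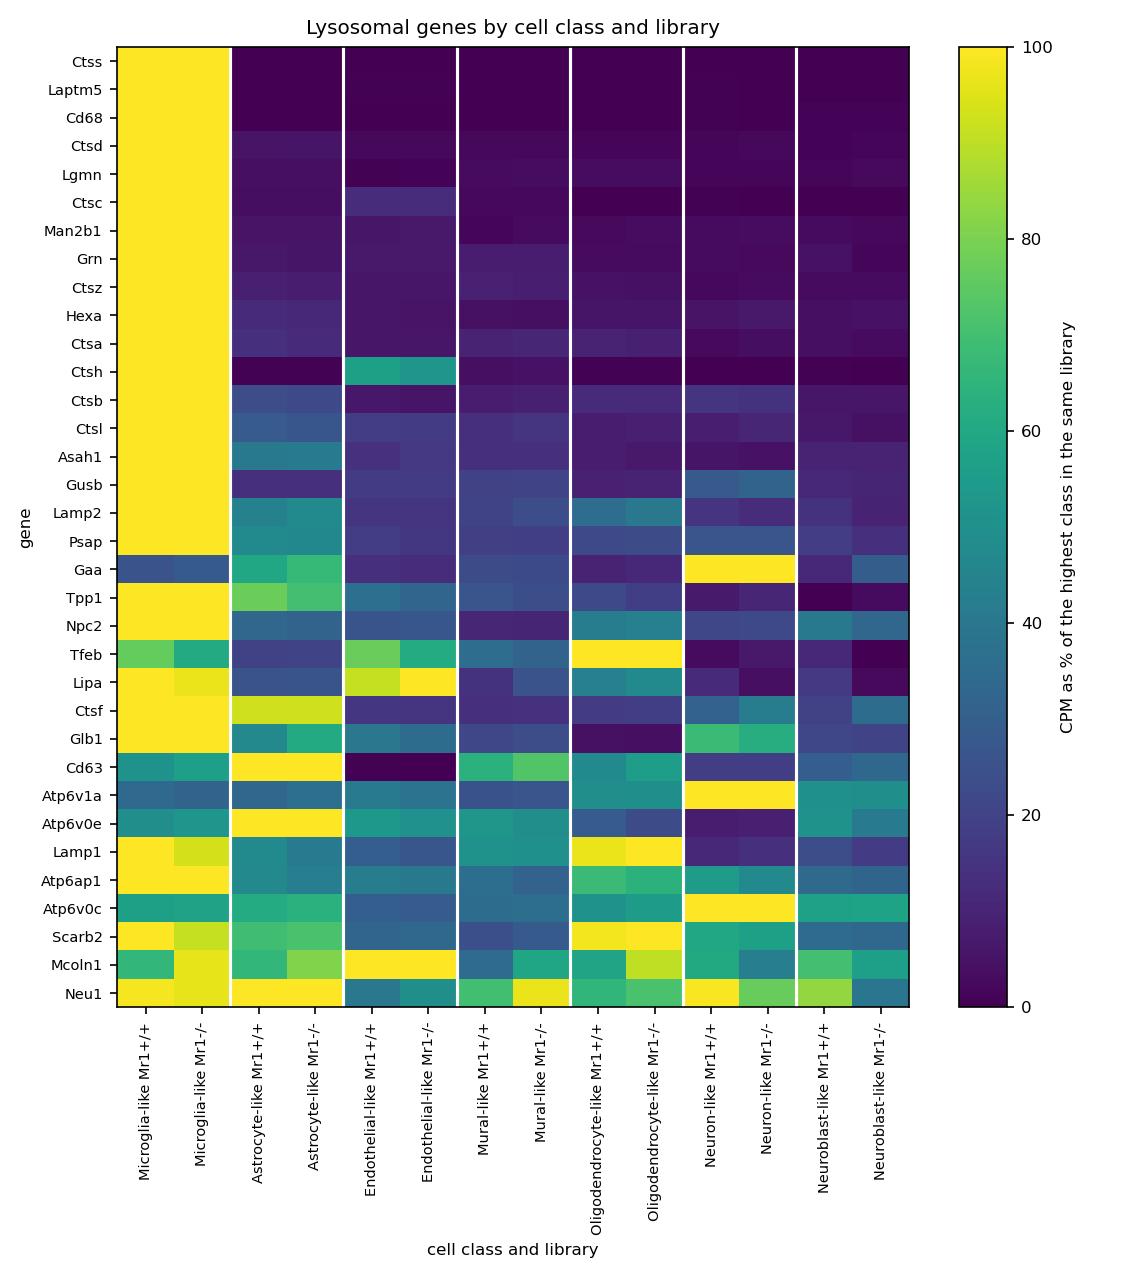
Level of each of the 34 lysosomal genes (rows) in the 7 compared cell classes, split by library (columns), as a percent of the gene's CPM in its highest class of the same library, from 0 (dark) to 100 (yellow). Ctss, Laptm5 and Cd68 are dark everywhere except in the microglia-like columns, Ctsh has a second place in endothelial-like cells, and Cd63 is darkest in endothelial-like cells.

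All 11 proteases were highest in microglia-like cells in both libraries, some of them almost nowhere else. Ctss encodes cathepsin S, a cysteine protease of antigen-presenting cells, and reached 7097 CPM (95% interval 7012 to 7182) and 7448 CPM (7363 to 7533) in microglia-like cells. In endothelial-like cells Ctss stood at 6.05 and 5.26 CPM, where the microglial share there times the microglial level gives 5.73 and 5.63 CPM. In no other compared class was Ctss at over 2 times the free-RNA level in both libraries. It was at 11.4 and 3.33 CPM in neuroblast-like cells, beside free-RNA levels of 5.79 and 2.66 CPM. In oligodendrocyte-like cells it was at 3.51 and 8.36 CPM, beside 5.08 and 6.03 CPM. Whether these classes express Ctss at a low level was not tested. Ctsd, the aspartic protease cathepsin D, had 6799 and 6274 CPM in microglia-like cells, 348 and 349.5 CPM in astrocyte-like cells and 79.5 to 150.2 CPM in the remaining compared classes of both libraries. Ctsd shares exon sequence on the same strand with the predicted gene Gm49369, so reads in that stretch may have been left out or split by the counting.

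Legumain (Lgmn), which also trims other cathepsins into their mature forms, was at 3644 and 3666 CPM in microglia-like cells and at 149.9 and 148 CPM in astrocyte-like cells, and lowest in endothelial-like cells (28.0 and 29.9 CPM). Ctsb, cathepsin B, was broader: 3199.8 and 3218 CPM in microglia-like, 756 and 711 CPM in astrocyte-like and 477 and 473 CPM in neuron-like cells. Ctsz, a carboxypeptidase, was at 2237 and 2289 CPM in microglia-like cells and at 209 and 196 CPM in mural-like cells, the next class. Ctsa, the protective protein that holds beta-galactosidase and neuraminidase together, was at 979 and 977 CPM in microglia-like cells against 137 and 120.3 CPM in astrocyte-like cells. Each of these 4 genes (Lgmn, Ctsb, Ctsz and Ctsa) was at least 4.23 times higher in microglia-like cells than in its next class in both libraries.

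Cathepsins H, C, L and F were also found at a marked level in another class. Ctsh, an aminopeptidase, was at 872 and 869 CPM in microglia-like cells and at 494 and 456 CPM in endothelial-like cells, where 62.0% and 60.3% of the cells held at least 1 UMI of it. In oligodendrocyte-like cells Ctsh was found in 1.73% and 1.97% of the cells (4.15 and 5.25 CPM), although their median of 4346 and 4179 UMIs was above the 2538.5 and 2334.5 of endothelial-like cells. After thinning to 1500 UMIs the endothelial-like share was 48.8% and 47.6% and the oligodendrocyte-like share 0.386% and 0.742%. Ctsc, which activates granule proteases, was at 612 and 624 CPM in microglia-like, 77.0 and 78.9 CPM in endothelial-like and only 0.798 and 1.19 CPM in oligodendrocyte-like cells. Ctsl (cathepsin L) was at 1429 and 1419 CPM in microglia-like cells and at 409 and 379 CPM in astrocyte-like cells. The small fibroblast-like class, with 27 and 30 cells and not compared further, held Ctsl at 1436 and 1649 CPM from 148 and 174 UMIs. Ctsf was at 315 and 303 CPM in microglia-like and 292 and 281 CPM in astrocyte-like cells, so that these neighbours differed by 1.08-fold in each library. Tpp1, a tripeptidase mutated in a childhood form of Batten disease, was at 217 and 238 CPM in microglia-like and 168 and 166 CPM in astrocyte-like cells and gave 0 and 2 UMIs in neuroblast-like cells.

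Of the membrane proteins, Laptm5 and Cd68 were almost confined to microglia-like cells among the 7 classes, and the other 5 were broadly expressed. Laptm5, a membrane protein of blood-derived cells, was at 3425 CPM (95% interval 3367 to 3485) and 3270.2 CPM (3214 to 3327) in microglia-like cells, and Cd68, a scavenger-receptor relative and common macrophage marker, at 407 and 395 CPM. Outside that class Cd68 gave 0 to 5 UMIs per compared class and library. Laptm5 in endothelial-like cells, at 16.1 and 14.9 CPM, was above the 2.77 and 2.47 CPM that free microglial RNA would give, and most of its UMIs lay in 1 cluster described further on.

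Cd63, a tetraspanin of late endosomes and exosomes, was broadly expressed but almost missing from endothelial-like cells. It was highest in astrocyte-like cells (1187 and 1124 CPM), followed by mural-like (760.5 and 820.2 CPM), microglia-like (612 and 636 CPM) and oligodendrocyte-like cells (563 and 627 CPM). In endothelial-like cells it was at 4.90 and 3.87 CPM, from 17 and 14 UMIs in 1340 and 1500 cells. The astrocyte-like level was 242-fold and 290-fold higher than the endothelial-like level. Cd63 was thus the only gene of the list at under 5 CPM in endothelial-like cells of both libraries while over 200 CPM in each of the other 6 compared classes.

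Lamp1 and Lamp2, the major glycoproteins of the lysosomal membrane, were found in every compared class. Lamp1 was at 1038 and 1053 CPM in microglia-like and 1005 and 1126 CPM in oligodendrocyte-like cells, whose order differed between the libraries, and lowest in neuron-like cells (118 and 154 CPM). Lamp2 was at 489 and 463 CPM in microglia-like and 214 and 222 CPM in astrocyte-like cells. Scarb2, the receptor that carries beta-glucocerebrosidase to lysosomes, was at 238 and 219 CPM in microglia-like, 234 and 240.2 CPM in oligodendrocyte-like and 165 and 171 CPM in astrocyte-like cells. Mcoln1, the calcium channel mucolipin 1, was at 75.8 and 59.2 CPM in endothelial-like cells and between 25.3 and 57.0 CPM in the other compared classes. Its neighbours in that order did not differ beyond counting error in the Mr1-/- library (endothelial-like 51.5 to 67.7 CPM, microglia-like 49.8 to 64.9 CPM).

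Of the 6 glycosidases, Hexa, Man2b1, Gusb and Glb1 were highest in microglia-like cells, Neu1 in astrocyte-like and Gaa in neuron-like cells. Hexa, the alpha subunit of the hexosaminidase lost in Tay-Sachs disease, was at 949 and 966 CPM in microglia-like cells and at 114 and 109 CPM in astrocyte-like cells. Man2b1, lysosomal alpha-mannosidase, was at 519.6 and 473 CPM in microglia-like cells and at most 33.2 CPM in the other compared classes. Gusb, beta-glucuronidase, was at 229.9 and 223 CPM in microglia-like cells and next in neuron-like cells (63.9 and 70.9 CPM). Glb1 was at 53.7 and 48.7 CPM in microglia-like, 36.6 and 30.4 CPM in neuron-like and 2.39 and 1.91 CPM in oligodendrocyte-like cells, and its exons overlap those of Tmppe on the same strand. Neu1, a sialidase, was at 58.8 and 50.7 CPM in astrocyte-like cells at 57.9 and 48.9 CPM in microglia-like and at 58.3 and 38.8 CPM in neuron-like cells, with overlapping intervals. Gaa reached 226 CPM (95% interval 199 to 257) and 203 CPM (168 to 242) in neuron-like cells, 135 and 136 CPM in astrocyte-like cells and 58.2 and 57.5 CPM in microglia-like cells, and was lowest in oligodendrocyte-like cells (21.4 and 23.4 CPM). The neuron-like Gaa intervals do not overlap those of the astrocyte-like class for either genotype (122 to 148 and 118 to 156 CPM).

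Psap, Npc2, Grn, Asah1 and Lipa were all highest in microglia-like cells in the Mr1+/+ library, though less exclusively than Ctss. Psap encodes the precursor of the saposins, small proteins that lift sphingolipids towards their enzymes. It was at 3068 and 3010.2 CPM in microglia-like, 1467 and 1411 CPM in astrocyte-like, 804 and 794 CPM in neuron-like and 682 and 699 CPM in oligodendrocyte-like cells, and 94.9% and 95.6% of astrocyte-like cells held a UMI of it. Npc2, which hands cholesterol to NPC1, was at 918 and 938 CPM in microglia-like and 385 and 408 CPM in oligodendrocyte-like cells, and lowest in mural-like cells (98.1 and 97.2 CPM). Grn, encoding progranulin, was at 1656 and 1555 CPM in microglia-like cells and at 124 and 124 CPM in mural-like cells. Asah1, acid ceramidase, was at 578 and 522 CPM in microglia-like and 234 and 213 CPM in astrocyte-like cells. Lipa, the lysosomal acid lipase that frees cholesterol from its esters, was nearly equal in microglia-like (136 and 119 CPM) and endothelial-like cells (123 and 122 CPM). These intervals overlap, and the next class, oligodendrocyte-like, stood at 59.0 and 58.3 CPM.

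The 4 pump genes were highest in 3 different classes, and the genes for its small membrane subunit e had different class patterns. Atp6v0c, the ring subunit that carries the protons, was at 1769 CPM (95% interval 1690.4 to 1851) and 1734 CPM (1630.0 to 1844) in neuron-like cells, 1089 and 1107 CPM in astrocyte-like and 1006 and 997 CPM in microglia-like cells. Atp6v1a was at 159 and 147 CPM in neuron-like cells and between 38.6 and 79.5 CPM in all other compared classes. Atp6ap1, an accessory subunit, was found in every class: its highest class, microglia-like (241 and 239 CPM), was 2.89 and 3.18 times its lowest.

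Among the 7 compared classes Atp6v0e was lowest in neuron-like cells (46.0 and 50.7 CPM) and highest in astrocyte-like cells (588 and 584 CPM), with microglia-like cells at 290.0 and 306 CPM. Atp6v0e2 encodes the same subunit and is not among the 34. It was at 436 and 429 CPM in neuron-like, 440.0 and 418 CPM in oligodendrocyte-like and 207 and 200.1 CPM in astrocyte-like cells, and at 1.84 and 1.51 CPM in microglia-like cells, from 7 and 6 UMIs. Oligodendrocyte-like cells, in which Atp6v0e was next to lowest (169.6 and 134 CPM), had Atp6v0e2 near its top level. The G subunit also has several genes. Atp6v1g2 was at 275 and 247 CPM in neuron-like cells and at most 22.7 CPM in the other compared classes, while Atp6v1g1 was between 283 and 657 CPM in all 7.

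**Figure D2:**
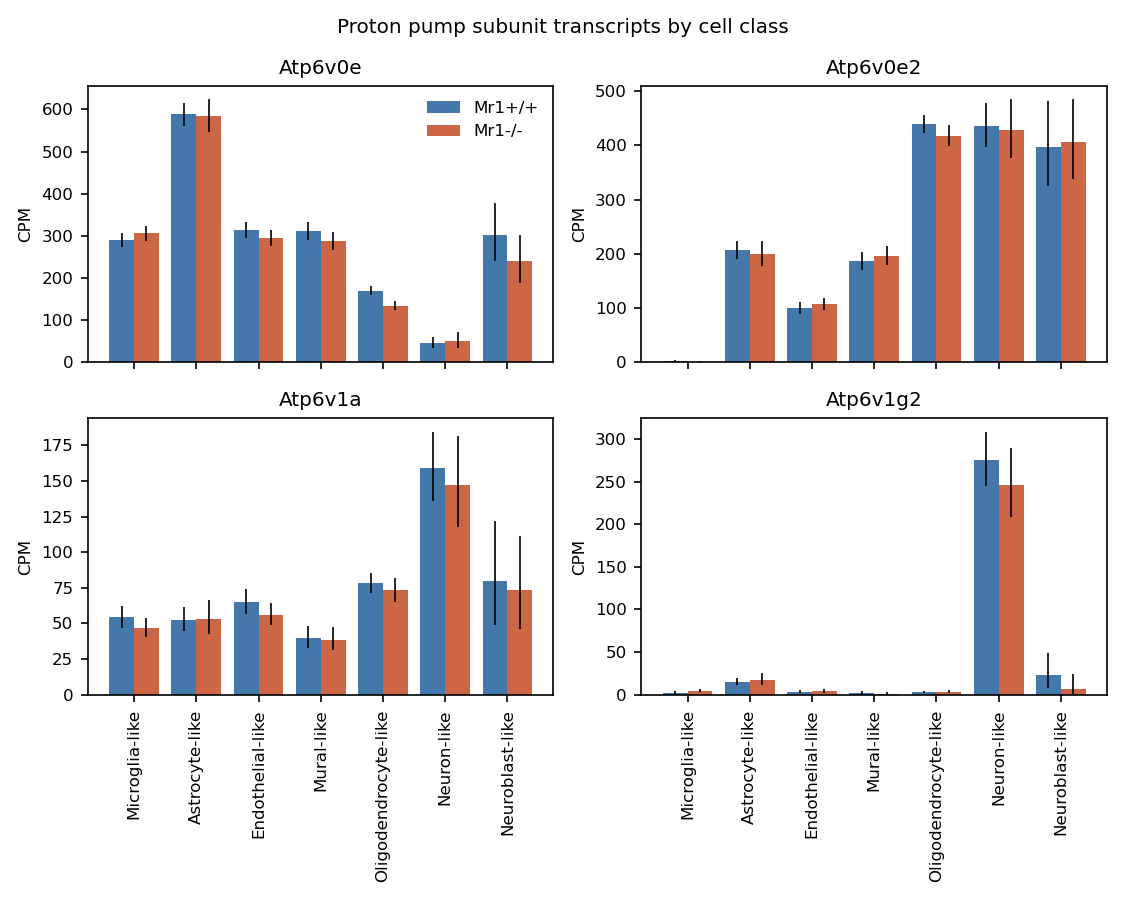
CPM of the V-ATPase genes Atp6v0e, Atp6v0e2, Atp6v1a and Atp6v1g2 in the 7 compared classes (bars: blue Mr1+/+, orange Mr1-/-, lines: exact 95% Poisson intervals, counting error only). Atp6v0e is low in neuron-like cells where Atp6v0e2 is high, Atp6v0e2 is near 0 in microglia-like cells, and Atp6v1g2 stands out in neuron-like cells.

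Tfeb, the regulator, was highest in oligodendrocyte-like cells in both libraries. It was at 66.0 and 75.7 CPM in oligodendrocyte-like cells, 51.0 and 46.5 CPM in endothelial-like, 50.3 and 46.4 CPM in microglia-like and 23.7 and 24.2 CPM in mural-like cells. In neuron-like cells it gave 2 and 3 UMIs. Its relatives Mitf and Tfe3, which bind the same E-box, were highest in microglia-like cells among the 7 classes, at 113 and 119 CPM and 60.8 and 68.6 CPM.

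Within the microglia-like class the summed level of the 34 genes was close in its 2 clusters. The cluster led by the chemokine gene Ccl4 (336 and 406 cells) held 43467 and 42933 CPM over the 34 genes, and the cluster led by Tmem119 and Gpr34 (329 and 354 cells) held 43668 and 43202 CPM. Cells had a median of 6748 and 5727 UMIs in the Ccl4-led cluster against 3181 and 3168.5 in the other. Ctss was at 7192 and 7527 CPM in the Ccl4-led cluster and at 6864 and 7262 CPM in the other, and Ctsd at 6712 and 6164 CPM and 7009.7 and 6535 CPM. Cd68 was at 423 and 417 CPM in the Ccl4-led cluster and at 367 and 344 CPM in the other. Cells with 3 or more markers of border macrophages numbered 11 and 12 in the class.

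Vessel cells were not uniform in these genes. In the mural-like class the 34 genes summed to 7355 and 7238 CPM in the cluster led by Kcnj8 and Vtn, markers of pericytes (434 and 477 cells), and to 3249.7 and 3194 CPM in the cluster led by Tagln and Acta2, markers of contractile smooth muscle (410 and 362 cells). The Ccl19-led cluster (119 and 131 cells) stood between, at 6394 and 6586 CPM. Cd63 was at 1236 and 1265 CPM, 483 and 487 CPM and 905 and 1093 CPM in these 3 clusters in that order. Ctsl was at 349 and 393 CPM in the Kcnj8-led cluster and 83.1 and 88.8 CPM in the Tagln-led cluster, Lgmn at 215 and 246 CPM and 46.3 and 31.4 CPM, and Asah1 at 143 and 109 CPM and 45.0 and 39.6 CPM. Cells of the Tagln-led cluster had a median of 4018.5 and 3734 UMIs against 1944.5 and 1821 in the Kcnj8-led cluster. The part of this depth in the differences was not tested.

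Endothelial-like clusters differed in the levels of Ctsc, Ctsh and Laptm5. Ctsc was at 288 and 342 CPM in the cluster led by Lrg1, Ackr1 and Vwf, genes of veins (38 and 34 cells, 30 and 32 UMIs), at 97.0 and 97.4 CPM in the Hmcn1-led cluster (824 and 898 cells) and at 30.4 and 29.9 CPM in the cluster led by Gkn3 and Bmx, genes of arteries (366 and 389 cells). Laptm5 was at 52.8 and 44.9 CPM in the Gkn3-led cluster (52 and 45 UMIs) and at 0.980 and 2.41 CPM in the Hmcn1-led cluster. Ctss, also concentrated in microglia-like cells, was at 6.09 and 8.98 CPM in the Gkn3-led and 5.39 and 2.41 CPM in the Hmcn1-led cluster. Ctsh was at 519.9 and 482 CPM in the Hmcn1-led cluster, 500.3 and 505 CPM in the Gkn3-led cluster and 317 and 267 CPM in the Lrg1-led cluster, but gave 0 and 1 UMIs in the small Plvap-led cluster (30 and 51 cells). Plvap marks the fenestrated endothelium of regions without a blood-brain barrier. Tfeb was at 81.2 and 63.9 CPM in the Gkn3-led and 40.2 and 40.5 CPM in the Hmcn1-led cluster.

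**Figure D3:**
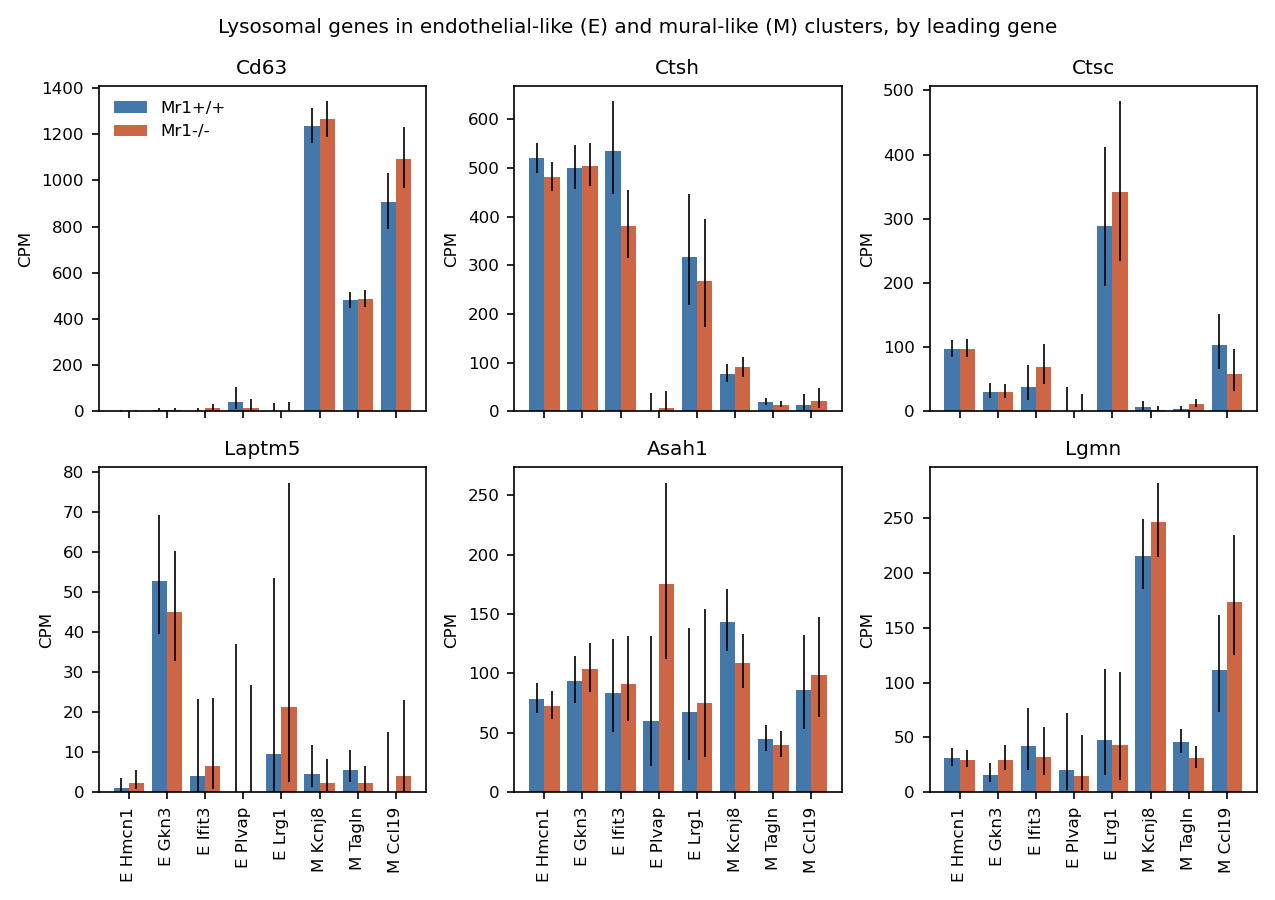
CPM of 6 lysosomal genes in the endothelial-like (E) and mural-like (M) clusters, each named by its leading gene (bars: blue Mr1+/+, orange Mr1-/-, lines: exact 95% Poisson intervals, counting error only). Cd63 is high in the 3 mural-like clusters and near 0 in the endothelial-like clusters, Laptm5 stands out in the Gkn3-led cluster, and Lgmn is highest in the Kcnj8-led cluster.

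Among oligodendrocyte-like clusters, Cd63 was at 694 and 722 CPM in the cluster that also had Il33 and Ptgds among its leading genes (638 and 450 cells), 548 and 636 CPM in the Hapln2-led cluster (545 and 387 cells) and 269 and 362 CPM in the Klk6-led cluster (153 and 113 cells). Lamp1 was at 932 and 1101 CPM, 1014 and 1096 CPM and 1192 and 1284 CPM in the same order, highest in the Klk6-led cluster, where Cd63 was lowest of the 3. A further cluster of 105 and 13 shallow cells was led by Lars2 and Gm42418 among others. Clusters were found in these same cells, so differences between them are descriptions.

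Between the genotypes, none of the 34 genes of microglia-like cells was past a 1.2-fold difference. All 34 had at least 100 UMIs over both libraries and so counted as measured. The count past the fold was 0 of 34 in both directions, where 17.6% of all 7335 measured genes were past it (6.27% higher and 11.3% lower). The 34 genes held 166019 and 170596 UMIs here, while the share over all genes takes every gene from 100 UMIs. Ratios from few UMIs vary more, and genes were not matched for UMIs here or in the classes below. A count under the share is thus not a sign of special stability. The 34 genes summed to 43525 and 43013 CPM, a ratio of 0.988 (0.982 to 0.995), where the interval of the ratio stands here and below after it. Ratios were above 1 for 12 genes and below 1 for 22, beside 3121 and 4214 of all 7335 measured genes. The median log2 ratio of the 34 was -0.02 beside -0.03 over all measured genes. The genes with the most UMIs were Ctss, at 7097 and 7448 CPM with a ratio of 1.05 (1.03 to 1.07), and Ctsd, at 6799 and 6274 CPM with a ratio of 0.923 (0.907 to 0.939). These 2 differences lay in opposite directions, and neither interval holds 1. Lgmn, the gene with the next most UMIs, was at 3644 and 3666 CPM with a ratio of 1.01 (0.983 to 1.03). Laptm5 was at 3425 and 3270.2 CPM with a ratio of 0.955 (0.932 to 0.978).

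By role, the 11 proteases of microglia-like cells had a summed ratio of 0.997 (0.989 to 1.01), the 7 membrane proteins 0.974 (0.956 to 0.991), the 6 glycosidases 0.972 (0.941 to 1.005), the 5 lipid-handling genes and activators 0.967 (0.950 to 0.984) and the 4 pump genes 0.998 (0.963 to 1.03). Of the lipid-handling group, 4 of 5 genes were lower in the Mr1-/- library: Asah1 at 578 and 522 CPM (ratio 0.904, 0.851 to 0.960), Lipa at 136 and 119 CPM (0.874, 0.770 to 0.993), Grn at 1656 and 1555 CPM (0.939, 0.907 to 0.973) and Psap at 3068 and 3010.2 CPM (0.981, 0.956 to 1.01). Man2b1 was lower too, at 519.6 and 473 CPM (0.910, 0.854 to 0.970). The highest ratio belonged to Mcoln1, at 50.3 and 57.0 CPM (1.13, 0.930 to 1.38), and the lowest to Neu1, at 57.9 and 48.9 CPM (0.844, 0.693 to 1.03), both with few UMIs and intervals that hold 1. After thinning to 1500 UMIs these 2 genes passed the fold, at 1.24 and 0.678. Without the Ccl4-led cluster Mcoln1 did, at 1.25.

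**Figure D4:**
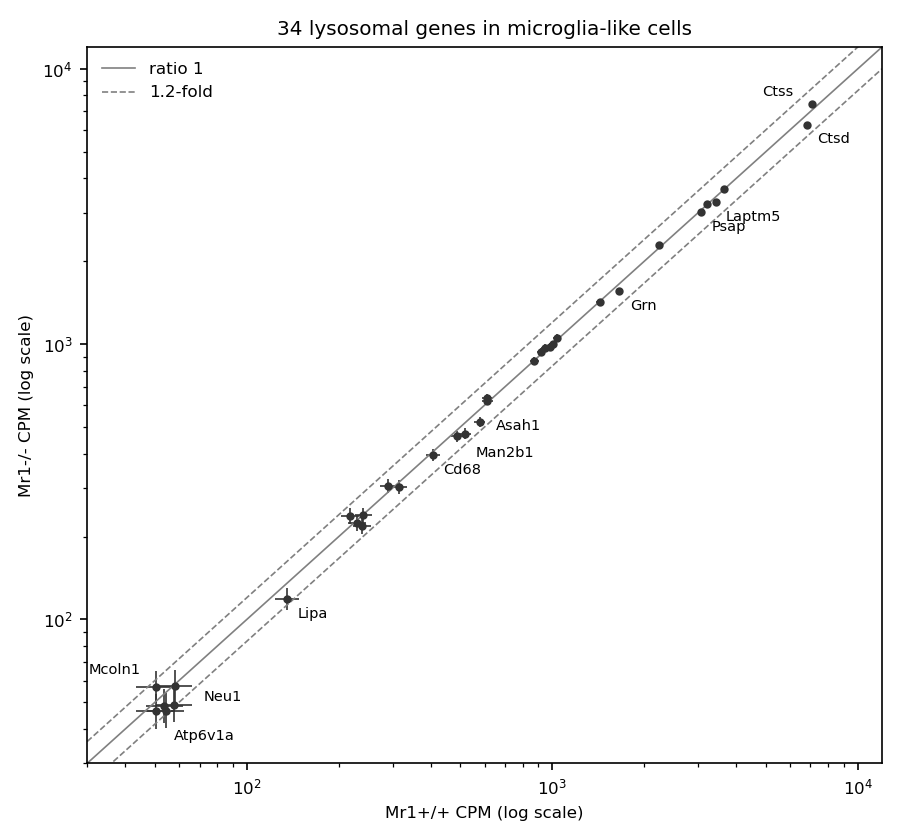
CPM of the 34 lysosomal genes in microglia-like cells of the Mr1+/+ library (x axis, log scale) and the Mr1-/- library (y axis, log scale), with exact 95% Poisson intervals (counting error only). The solid line is a ratio of 1 and the dashed lines are 1.2-fold; all 34 genes lie between the dashed lines, over levels from 46.4 to 7448 CPM.

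In endothelial-like cells 31 of the 34 genes were measured. Of these, 23 were lower in the Mr1-/- library, beside 3361 of all 7290 measured genes. The median log2 ratio of the 31 was -0.06 beside 0.02 for all genes, and the 34 genes summed to a ratio of 0.949 (0.928 to 0.971). Past the 1.2-fold were 0 genes higher and 2 lower, against 21.3% of all measured genes (11.6% higher and 9.71% lower). Mcoln1 was at 75.8 CPM (95% interval 66.9 to 85.6) and 59.2 CPM (51.5 to 67.7), from 263 and 214 UMIs, with a ratio of 0.781 (0.649 to 0.939). The difference had the same direction in the Hmcn1-led cluster (81.8 and 63.2 CPM) and the Gkn3-led cluster (69.0 and 54.9 CPM). Glb1, from 74 and 62 UMIs, was at 21.3 and 17.2 CPM with a ratio of 0.804 (0.564 to 1.14), an interval that holds 1, and it was not past the fold with each cell weighted equally (log2 ratio -0.15) or with doublets kept (-0.20). Psap and Atp6v0c had the most UMIs. Psap was at 552 and 483 CPM (0.874, 0.819 to 0.933), and Ctsh at 494 and 456 CPM (0.922, 0.862 to 0.987). Atp6v0c was at 527 and 504 CPM (0.957, 0.896 to 1.02). All 4 pump genes had ratios below 1 and summed to 0.946 (0.902 to 0.992).

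In oligodendrocyte-like cells 28 genes were measured, 2 of them past the 1.2-fold higher and 1 lower, against 17.6% of all measured genes (7.02% higher and 10.6% lower). The lower gene was Atp6v0e, at 169.6 CPM (95% interval 159.5 to 180.1) and 134 CPM (123 to 146), from 1063 and 561 UMIs. Its ratio was 0.790 (0.712 to 0.876), and the intervals of its levels do not overlap. It was lower in the Mr1-/- library in each of the 3 main clusters: 167 and 141 CPM in the cluster with Il33, 164 and 124 CPM in the Hapln2-led cluster and 187 and 140.2 CPM in the Klk6-led cluster. Its paralog Atp6v0e2 was at 440.0 and 418 CPM (0.951, 0.895 to 1.01). The higher genes were Mcoln1, at 44.4 and 53.5 CPM (1.21, 1.01 to 1.44), and Man2b1, at 13.6 and 16.5 CPM (1.21, 0.871 to 1.69), a level far below its microglial one. Mcoln1 was not past the fold after thinning (log2 ratio 0.24), with doublets kept (0.25) and at a mitochondrial maximum of 5% (0.23). The 5 measured membrane proteins were all higher and summed with the unmeasured ones to 1.10 (1.07 to 1.13), among them Lamp1 at 1005 and 1126 CPM (1.12, 1.08 to 1.16) and Cd63 at 563 and 627 CPM (1.11, 1.06 to 1.17). Of all 7689 measured genes, 3464 had ratios above 1. All 34 genes summed to 1.04 (1.03 to 1.06).

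In mural-like cells 28 genes were measured and 2 were past the fold, both higher, against 21.8% of all measured genes (11.5% higher and 10.3% lower). Mcoln1 was at 26.6 and 34.9 CPM from 72 and 85 UMIs (1.31, 0.945 to 1.82). Lipa was at 19.6 and 31.2 CPM from 53 and 76 UMIs (1.59, 1.10 to 2.30), a level under 0.2 of its top class in the Mr1+/+ library. The 5 measured membrane proteins were all above 1, among them Cd63 at 760.5 and 820.2 CPM (1.08, 1.01 to 1.15), and the 4 pump genes all below 1. Of all 6496 measured genes, 3373 were above 1 and 3123 below. The sum over the 34 genes had a ratio of 1.02 (0.998 to 1.05). With cells of up to 5% mitochondrial UMIs only, 9 genes were past the fold, all higher, and the summed ratio was 1.09. Within the Kcnj8-led cluster the sum had a ratio of 0.984 (0.950 to 1.02), and within the Tagln-led cluster 0.983 (0.944 to 1.02). The Kcnj8-led cluster held 434 and 477 cells, the Tagln-led 410 and 362 and the Ccl19-led 119 and 131. The part of this mix in the class ratios, that of Cd63 included, was not tested.

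In astrocyte-like cells 29 genes were measured, 21 of them with ratios below 1, beside 3432 of all 6270 measured genes. The median log2 ratio of the 29 was -0.06 beside -0.02 over all genes. Grn alone was past the fold, at 108 and 85.2 CPM from 334 and 126 UMIs (0.789, 0.638 to 0.972), against 22.7% of all measured genes (8.95% higher and 13.8% lower). Its astrocyte level was under 0.2 of its microglial level. The microglial markers summed to 56.9 and 39.2 CPM in the class, and the free-RNA level that they give for Grn is 1.69 and 1.09 CPM. The 4 genes with the most UMIs, Psap, Cd63, Atp6v0c and Ctsb, had ratios of 0.962 (0.913 to 1.01), 0.946 (0.892 to 1.003), 1.02 (0.958 to 1.08) and 0.940 (0.873 to 1.01). The 34 genes summed to a ratio of 0.966 (0.946 to 0.986). Astrocyte-like cells numbered 962 and 479, and the cluster led by Gfap held 101 and 21 of them.

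In the neuron-like and neuroblast-like classes few UMIs were available. In neuron-like cells 15 genes were measured, and 4 were past the fold higher and 1 lower, against 26% of all measured genes (11.6% higher and 14.4% lower). The 4 were Lamp1 at 118 and 154 CPM (1.30, 0.980 to 1.71), Ctsf at 98.7 and 128 CPM (1.30, 0.955 to 1.76), Ctsl at 119 and 150.3 CPM (1.26, 0.950 to 1.66) and Ctsd at 117 and 145 CPM (1.25, 0.936 to 1.65). The lower gene was Lamp2 at 75.2 and 59.1 CPM (0.786, 0.513 to 1.18). All 5 intervals hold 1. With each cell weighted equally Lamp1, Ctsf and Ctsd were not past the fold. After thinning to 1500 UMIs none of the 5 was both measured and past it, and Gaa was (0.818). Of the genes concentrated in microglia-like cells, Ctss was at 26.3 and 1.69 CPM from 28 and 1 UMIs and Laptm5 was at 15.03 and 1.69 CPM from 16 and 1 UMIs. Microglial markers moved with them, at 179 and 23.6 CPM, and their part in these values was not tested. The free-RNA level that they give for Ctss is 22.9 and 3.15 CPM. In neuroblast-like cells 7 genes were measured and 3 were past the fold lower, against 50.7% of all measured genes (25.1% higher and 25.7% lower): Psap at 561 and 417 CPM (0.743, 0.581 to 0.949), Lamp1 at 250.01 and 197 CPM (0.786, 0.544 to 1.13) and Atp6v0e at 303 and 240.0 CPM (0.792, 0.568 to 1.10). By ratio alone the Atp6v0e difference reversed after thinning, to a log2 ratio of 0.44, but the gene was not measured there. It was not past the fold with each cell weighted equally (-0.17) or at a mitochondrial maximum of 5% (-0.08).

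**Figure D5:**
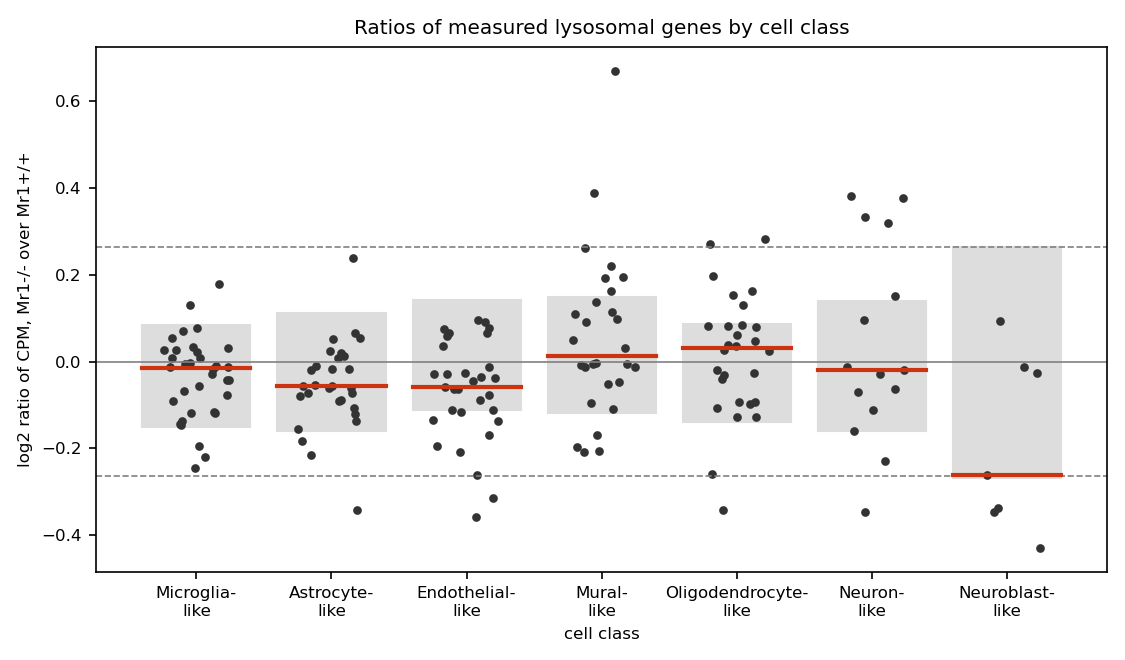
Log2 ratio of CPM (Mr1-/- over Mr1+/+) of each measured lysosomal gene in each compared class (points, spread sideways for legibility), with the median over these genes (red line), the middle of all measured genes from the lower to the upper quartile (grey box) and the 1.2-fold lines (dashed). Microglia-like points all lie within the dashed lines; the neuron-like and neuroblast-like points rest on fewer UMIs and spread more widely.

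Mcoln1 was the gene past the fold in the most classes. It was lower in the Mr1-/- library in endothelial-like cells (0.781) and higher in oligodendrocyte-like and mural-like cells (1.21 and 1.31). In microglia-like and astrocyte-like cells it was not past the fold (1.13 and 0.958). Mcoln1 gave 1047 and 856 UMIs over the classes. Atp6v0e was past the fold lower in oligodendrocyte-like and neuroblast-like cells and not in microglia-like (1.05, 0.971 to 1.15) or astrocyte-like cells (0.993, 0.915 to 1.08). None of the 34 genes lies on chromosome 1, which carries Mr1. They lie on 16 chromosomes.

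Of 105 other lysosomal genes, 86 were measured in microglia-like cells, 2 past the 1.2-fold higher and 7 lower, and their median log2 ratio was -0.02. Atp6v0b, a pump subunit, was at 1083 and 1118 CPM and Laptm4a, a membrane protein related to Laptm5, at 922 and 901 CPM. These 9 genes were 10.5% of the measured list, below the 17.6% of all measured genes. Sorting and nutrient-sensing genes made up 7 of the 9 (7 of 27 measured, 25.9%, with 1 higher and 6 lower), a sublist noticed after its values were seen. They included Vps33a at 29.6 and 22.4 CPM (0.757, 0.567 to 1.01) and Vps41 at 56.1 and 44.9 CPM (0.800, 0.652 to 0.980), members of a tethering complex for fusion with lysosomes, and Lamtor3 at 87.3 and 67.3 CPM (0.771, 0.654 to 0.909), part of the Ragulator scaffold for mTORC1. Vps11 of the same tethering complex was higher, at 38.3 and 48.7 CPM (1.27, 1.02 to 1.59). Rnaset2a, a lysosomal ribonuclease gene, was at 66.9 and 124 CPM (1.85, 1.59 to 2.16) in microglia-like and 15.6 and 34.03 CPM (2.19, 1.58 to 3.07) in endothelial-like cells. It has a near-identical copy, Rnaset2b, so the split of reads between the copies is uncertain.

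In the other large classes the 105 genes gave these counts past the fold: 8 higher and 3 lower of 72 measured in endothelial-like cells (15.3%), 1 and 6 of 78 in oligodendrocyte-like (8.97%), 6 and 2 of 65 in mural-like (12.3%), and 3 and 13 of 75 in astrocyte-like cells (21.3%). Over all measured genes the shares were 21.3%, 17.6%, 21.8% and 22.7% in the same order, so with both directions together none of the 4 lists was above its background. By direction, 3 of 75 were higher and 13 of 75 lower in astrocyte-like cells, beside 8.95% higher and 13.8% lower of all measured genes. Endothelial-like examples were Sumf1, the activator of sulfatases, at 11.8 and 19.6 CPM (1.66, 1.12 to 2.50), and Rnaset2b at 51.6 and 71.1 CPM (1.38, 1.13 to 1.68). In oligodendrocyte-like cells Hgsnat was at 21.9 and 13.8 CPM (0.634, 0.458 to 0.867), Vps33a at 25.5 and 18.1 CPM (0.711, 0.534 to 0.940) and Rragc, a GTPase of nutrient sensing, at 40.7 and 29.1 CPM (0.716, 0.572 to 0.892). In mural-like cells Clcn7, the chloride-proton exchanger of lysosomes, was at 23.7 and 16.8 CPM (0.710, 0.468 to 1.07) and Atp6v0a2, a pump subunit, at 32.6 and 44.3 CPM (1.36, 1.02 to 1.82). In astrocyte-like cells Arsa, arylsulfatase A, was at 41.0 and 25.7 CPM (0.626, 0.424 to 0.906), Slc38a9, an amino acid sensor of the lysosomal membrane, at 32.6 and 20.96 CPM (0.642, 0.415 to 0.969) and Galc, the enzyme lost in Krabbe disease, at 27.8 and 18.3 CPM (0.657, 0.410 to 1.02).

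Cathepsin inhibitors are the last list. Of 8 such genes, 5 were measured in endothelial-like cells and 2 were past the fold, both lower, where 9.71% of all measured genes were past it lower. Ctla2a, a small inhibitor related to cathepsin propeptides, was at 881 CPM (95% interval 850.0 to 913) and 426 CPM (405 to 448), from 3056 and 1539 UMIs, a ratio of 0.483 (0.454 to 0.514). Its neighbour in sequence, Ctla2b, was at 106 and 82.5 CPM (0.777, 0.665 to 0.908), and reads shared between these similar genes make each value uncertain. Both also overlap exons of predicted genes on the same strand (Gm49391, Gm49393 and Gm49392). The 11 cathepsins and other proteases of the same cells stood at a summed ratio of 0.954 (0.918 to 0.991). Cst3, cystatin C, a secreted inhibitor of cysteine cathepsins, was at 90886 and 91657 CPM (1.01, 1.004 to 1.01) in microglia-like and 40932 and 45313 CPM (1.11, 1.10 to 1.12) in astrocyte-like cells.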

How the data were processed

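Both libraries were analysed from the UMI counts per gene and cell barcode that the authors deposited without normalization. Cell Ranger 3.1.0 is named per the matrix header, Cell Ranger 5.1.0, STAR and the mm10 build per the submitters' processing notes, and no source used here gives the annotation release. The 34 genes, the other gene lists and the markers were chosen with earlier results of these data known.

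Cells with at least 300 genes and at most 10% mitochondrial UMIs were kept. Scrublet (expected rate 0.05) marked 349 and 183 cells as doublets, which were removed. The 2000 most variable genes, leaving out all lysosomal and inhibitor genes, gave 30 principal components, 15 neighbours and Leiden clusters at resolution 1.0 (seed 7), with no integration of the libraries. A cluster was named where at least 3 markers of a type were each seen in 10% of its cells and its 10 leading genes did not go against the name. Shallow clusters with a median under the library median divided by 3 and no such leading marker stayed unnamed (158 and 83 cells). Names rebuilt in this way may differ from the study's.

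UMIs were summed per class and library. Levels carry exact Poisson and ratios exact conditional binomial 95% intervals, which cover counting error only. A gene was measured in a class from 100 UMIs over both libraries, and past the fold at a ratio of at least 1.2 or at most its inverse. Genes were named where they were past the fold and at 0.2 or more of their top-class level, or among the 4 with the most UMIs, or the 5 most or 5 least concentrated in a class; of the other lists, the 4 with the most UMIs and the 3 highest and 3 lowest ratios in classes of at least 200 cells per library could be named. Genes named beyond that rule were chosen after their values were seen. The interval and fold code was tested on simulated data. Alternatives were other scaling, equal weight per cell, thinning to 1500 UMIs, doublets kept, other mitochondrial limits, other clusterings, another UMI minimum, another fold and parts of the microglia-like class left out. Gene positions are from GENCODE M21. Per its exons, Ctsd and Glb1 (and, outside the 34, Rnaset2a, Rnaset2b, Ctla2a and Ctla2b) overlap another gene on the same strand, and Lamp1, Ctsa, Ctsb, Ctsl, Ctsz, Hexa and Grn have an overlapping antisense gene; no source used here says whether counting used strand, so their values are less certain. Clustering used scanpy 1.11.5 with leidenalg 0.10.2 and scikit-learn 1.9.0, intervals used SciPy 1.17.1, tables used pandas 2.3.3, NumPy 2.4.6 and anndata 0.12.19, and plots used matplotlib 3.10.9, all under Python 3.11.15.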

Additional observations from a re-analysis of the deposited data

Results flagged for a closer look

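Mcoln1, the mucolipin 1 channel, had a ratio of 1.21 in oligodendrocyte-like cells and of 0.781 in endothelial-like cells. It is listed because the 2 classes differ in opposite directions between the same 2 libraries and neither interval holds 1. With 1 library per genotype the difference between the classes was not tested.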

How the results depend on the processing

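Counts of genes past the fold moved with the settings. After thinning to 1500 UMIs the count was 1 in endothelial-like cells (2 before), 1 in oligodendrocyte-like (3), 4 in mural-like (2), 2 in astrocyte-like (1) and 2 in microglia-like cells (0). The 4 mural-like genes were Scarb2 (1.23), Ctsl (1.30), Ctsf (0.760) and Gusb (0.779). Neither Mcoln1 nor Lipa was among them. With a minimum of 20 UMIs the count was 7 in oligodendrocyte-like, 4 in mural-like and 3 in astrocyte-like cells. At a fold of 1.5 it was 0 in endothelial-like, oligodendrocyte-like and astrocyte-like cells and 1 in mural-like cells. With cells of at most 5% mitochondrial UMIs it was 9 in mural-like, 2 in astrocyte-like and 1 in microglia-like cells (Neu1, 0.830), and the summed ratio in mural-like cells was 1.09 in place of 1.02. With each cell weighted equally it was 4 in mural-like cells, with doublets kept 2 in astrocyte-like cells, and without the Ccl4-led cluster 1 in microglia-like cells (Mcoln1, 1.25). Median-of-ratios scaling gave microglia-like cells a median log2 ratio of 0.015 in place of -0.02 and a summed ratio of 1.01 in place of 0.988, so the direction of that small difference depends on the scaling. The log2 ratio of Atp6v0e in neuroblast-like cells reversed to 0.44 after thinning, where the gene was not measured. The cause of these shifts was not tested. For the 8 gene and class pairs named by the rule as past the fold, 64 values were recomputed. By ratio alone, 55 stayed past the fold in the same direction, 8 did not and 1 reversed. The UMI minimum was not applied to this count. The 55 include thinned values of Glb1 (endothelial-like), Mcoln1 (mural-like), Ctsf (neuron-like) and Lamp1 (neuroblast-like), which were not measured after thinning. Lamp1 was also not measured there at the 5% limit. Some other clusterings returned the main value unchanged, so the 55 are not independent checks. No paired analysis was possible because each genotype had a single library.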

Other observations

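A cluster of 64 and 25 shallow cells with a median of 813.5 and 781 UMIs, led by Ccl4, Ccl6 and Lyz2, was left unnamed. The 34 lysosomal genes summed there to 40672 and 28218 CPM, against 43525 and 43013 CPM in microglia-like cells.

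Classes too small to compare had patterns of their own. In fibroblast-like cells (27 and 30) Ctsh was at 281 and 436 CPM from 29 and 46 UMIs, Cd63 at 1174 and 1355 CPM and Gaa at 301 and 227 CPM. In ependymal-like cells (44 and 58) Ctsh was at 222 and 263 CPM from 69 and 94 UMIs. In oligodendrocyte precursor-like cells (42 and 32) Atp6v0e was at 856 and 815 CPM from 178 and 113 UMIs, against 169.6 and 134 CPM in oligodendrocyte-like cells.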
